A study of Mus musculus with 6 samples.

Results

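The 38 genes described here are genes of microglia, the resident macrophages of the brain, and of the macrophages at its borders, taken by name as a list that was drawn up with earlier results of these data known. They make up 38 of 19938 genes with a probe set of their own symbol. Each of the 38 was measured by 1 such probe set. Of them, 32 were treated as microglial, although most are shared by all macrophages, and 6 were treated as border macrophage genes (Mrc1, Pf4, Lyve1, Cd163, Ms4a7 and Stab1). The tissue was dissected neocortex, the sheet of the forebrain that becomes most of the cerebral cortex, at embryonic day 14.5. RNA of 6 mouse embryos was kept apart, so each of the 6 Affymetrix Mouse Gene 1.0 ST arrays stands for 1 embryo. The 3 controls were wild type (Bcl11a+/+). The 3 mutants (Bcl11aΔflox/Δflox) had Bcl11a, a zinc finger transcription factor, deleted by recombination of a floxed allele on both copies. No source used here gives the Cre line, the deleted cells or the litters, so whether macrophages themselves carried the deletion is not known. The comparison addresses whether macrophage RNA in the neocortex differed between the genotypes.

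Microglia descend from yolk sac progenitors that enter the brain during early development, before most neurons are born. They depend on the receptor Csf1r, which binds Csf1 and Il34, and on the transcription factors PU.1 (gene Spi1) and Irf8. Border macrophages share this core programme but live in the meninges, around vessels and in the choroid plexus, and are known for the scavenger receptors and surface proteins encoded by Mrc1, Lyve1, Stab1 and Cd163.

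Values are log2 expression as deposited, and differences are mutant minus control, so a difference of 1 is a doubling. Correlations between arrays lay between 0.993 and 0.997. Bcl11a fell from 12.25 ± 0.05 to 11.41 ± 0.08 (SD, n = 3 arrays each; limma adjusted p = 0.00201). The cortical markers Emx1, Emx2, Tbr1, Neurod6 and Pax6 read between 9.77 and 12.61 on all arrays. Mutant replicate 1 stood apart from the other mutants. In it 279 genes (1.4%) lay more than 0.5 above the control mean, against 89 in mutant replicate 2 and 125 in mutant replicate 3. Several values are therefore given with and without it. Array weights, which are lower for arrays that vary more, were 0.652 for it. They were lower still for control replicates 1 (0.55) and 3 (0.453). Xist and Y-linked genes marked control replicates 1 and 3 and mutant replicate 2 as female. On these arrays 9 of the 38 genes had a mean level at or below 6.03, the lower quartile over all genes, and 4 reached the median over all genes of 7.92. Robust multi-array averaging compresses differences at such low levels. Of the defining markers, Csf1r, Cx3cr1, Fcrls, Tyrobp, Tmem119, P2ry12, Spi1 and Sall1 lay above that quartile on every array, and Ptprc lay below it in 5 of 6 arrays.

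None of the 38 genes passed the threshold over all genes (limma adjusted p under 0.05). The lowest adjusted p was 0.335, for Csf1r. Over all genes 57, or 0.286%, passed. At an unadjusted limma p under 0.05 there were 7 of 38 genes, or 18.4%, all higher in mutant embryos. Over all genes 4.53% were higher and 1.52% lower at that level. With the sex of the embryo as a covariate 2 of 38 genes reached it. The share of all genes under that fit is not given here, so that count cannot be set against it. The 7 were Csf1r, Fcrls, P2ry6, C1qb, Cx3cr1, Spi1 and Tyrobp. Positive differences were found for 35 of 38 genes, where 60.3% of all genes had one. In 13 of 38 genes, or 34.2%, every mutant array lay above every control array, against 7.69% of all genes. All 13 were microglial genes. The median difference over the 38 genes was 0.15, against 0.02 over all genes. Without mutant replicate 1 these medians were 0.08 and 0.01. In bulk tissue, more cells of a type and more RNA per cell cannot be told apart. An exact two-sided permutation test of 3 against 3 arrays cannot give a p below 0.1, so single genes rest on the limma fit.

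**Figure D1:**
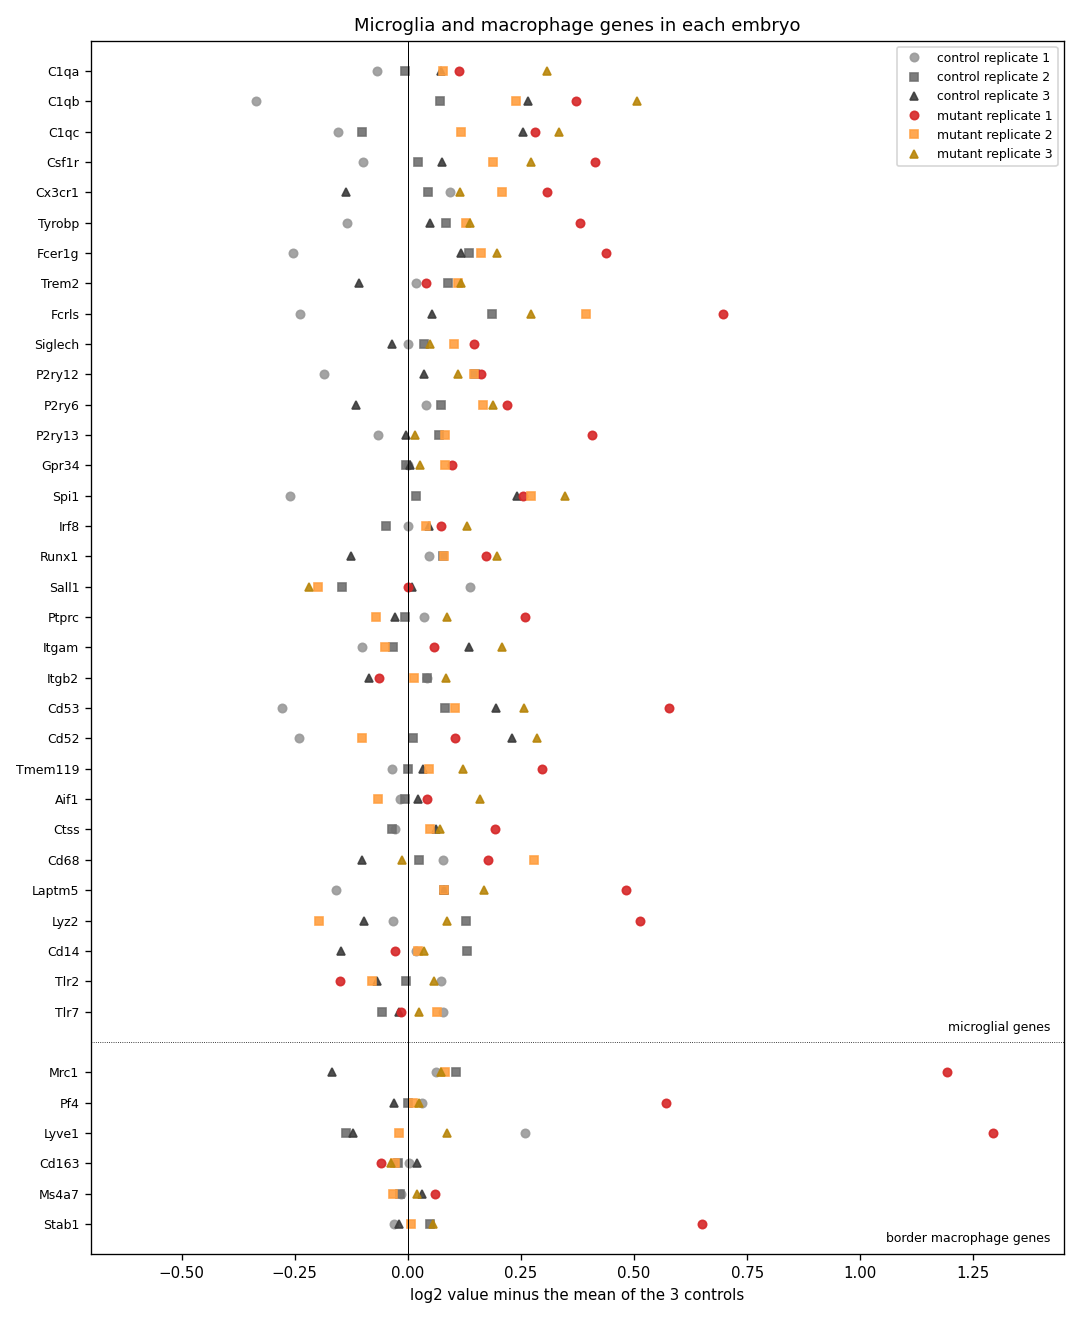
Each row is a gene and each point an embryo, placed by its log2 value minus the mean of the 3 controls (x axis). Grey points are controls and coloured points mutants. Most microglial genes spread within about 0.5 of the control mean with mutants to the right, while Mrc1, Lyve1, Pf4 and Stab1 show 1 distant point, mutant replicate 1.

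Csf1r and Fcrls, both cell surface receptors, had the lowest limma p-values of the microglial genes. Csf1r (Entrez 12978), the receptor that macrophages need to survive, read 7.49, 7.61 and 7.66 in control embryos and 8.001, 7.78 and 7.86 in mutant embryos. The groups did not overlap. Its difference was 0.29 ± 0.08 (SE, limma adjusted p = 0.335), with a 95% confidence interval of 0.11 to 0.47 before adjustment for the number of genes, and it was 0.23 without mutant replicate 1. Fcrls (Entrez 80891), an Fc receptor-like protein known as a microglial marker of the mouse, read 7.03, 7.45 and 7.32 in control embryos and 7.96, 7.66 and 7.54 in mutant embryos. The groups did not overlap, and mutant replicate 1 was highest. Its difference of 0.45 ± 0.13 (SE, limma adjusted p = 0.404) stood beside 0.45 for the border genes Lyve1 and Mrc1 as the largest of the 38, and was 0.33 without mutant replicate 1. Cx3cr1 (Entrez 13051), the receptor for the neuronal chemokine Cx3cl1, read 7.88, 7.83 and 7.65 in control embryos and 8.09, 7.99 and 7.90 in mutant embryos. The groups did not overlap, and control replicate 1 and mutant replicate 3 lay closest together. Its difference was 0.21, and 0.16 without mutant replicate 1.

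Receptors of this kind pass on their signals through adaptor proteins. Tyrobp, which encodes the adaptor DAP12 used by Trem2, read 6.85, 7.06 and 7.03 in control embryos and 7.36, 7.11 and 7.12 in mutant embryos. The mutants lay above the controls, but mutant replicates 2 and 3 did so by less than 0.1. Its difference was 0.22, and 0.13 without mutant replicate 1. Fcer1g, the common gamma chain of Fc receptors, differed by 0.27 ± 0.12 (SE), by 0.18 without mutant replicate 1 and by 0.14 without control replicate 1. Trem2, a lipid-sensing receptor, differed by 0.09 ± 0.07 (SE), and its groups overlapped. Siglech, a sialic acid-binding lectin, differed by 0.10.

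The 3 chains of complement C1q, the recognition subunit of the classical complement pathway, are encoded by neighbouring genes on chromosome 4. C1qb (Entrez 12260) read 7.81, 8.21 and 8.41 in control embryos and 8.51, 8.38 and 8.65 in mutant embryos, a difference of 0.37 ± 0.14 (SE, limma adjusted p = 0.678). C1qc read 7.40, 7.45 and 7.81 in control embryos and 7.83, 7.67 and 7.89 in mutant embryos. C1qa read 7.12, 7.18 and 7.26 in control embryos and 7.30, 7.27 and 7.50 in mutant embryos. Control replicate 1 was lowest and mutant replicate 3 highest for each of these genes, and the groups overlapped for C1qb and C1qc. Without mutant replicate 1 the differences of C1qa, C1qb and C1qc were 0.19, 0.37 and 0.23. Without control replicate 1 they were 0.13, 0.20 and 0.17, so C1qb moved by over 1.5 times.

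Promoters of C1qb and C1qc are shown because these neighbours had the same order of lowest and highest embryo. They are RefSeq sequences of GRCm38.p6, 250 bases before to 50 after the gene start, both on the minus strand of chromosome 4. C1qb lies at chr4:136886151-136886450 and C1qc at chr4:136892865-136893164. Capitals mark matches on either strand to GAGGAAGT, the core sequence bound by PU.1, and to TGACCA, the motif described for BCL11A.
C1qb: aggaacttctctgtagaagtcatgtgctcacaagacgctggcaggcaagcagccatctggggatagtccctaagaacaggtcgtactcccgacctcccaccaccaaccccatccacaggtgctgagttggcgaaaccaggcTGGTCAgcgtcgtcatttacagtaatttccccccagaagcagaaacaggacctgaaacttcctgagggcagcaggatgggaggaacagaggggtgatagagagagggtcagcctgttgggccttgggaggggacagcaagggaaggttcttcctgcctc
C1qc: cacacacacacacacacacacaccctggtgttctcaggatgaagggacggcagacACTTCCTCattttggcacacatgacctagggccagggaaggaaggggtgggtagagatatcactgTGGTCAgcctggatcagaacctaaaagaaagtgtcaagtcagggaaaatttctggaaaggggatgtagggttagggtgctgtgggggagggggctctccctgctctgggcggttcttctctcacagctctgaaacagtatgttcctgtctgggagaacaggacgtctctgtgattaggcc
Each held 1 TGACCA match, and C1qc also held 1 GAGGAAGT match. The RefSeq table held 32 promoters of 26 of the 38 genes. Of these, 4 promoters (12.5%) held GAGGAAGT, against 3.2% of all 32851 promoters, and they belonged to C1qc, Cd53, Ctss and Pf4. TGACCA was found in 8 promoters (25%), against 13.6% of all promoters. The matches to the motifs do not overlap in the promoters shown, and a match describes letters, not binding. Promoters of C1qa, Cd14, Cd52, Csf1r, Gpr34, Itgb2, Lyve1, P2ry6, Spi1, Tlr7, Tmem119 and Tyrobp were not used here.

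Purinergic receptors let microglia sense nucleotides released by other cells. P2ry6, the receptor for UDP, read 6.78, 6.81 and 6.63 in control embryos and 6.96, 6.91 and 6.93 in mutant embryos, a difference of 0.19 ± 0.07 (SE, limma adjusted p = 0.610). It did not overlap between the groups and was 0.18 without mutant replicate 1. P2ry12, the ADP receptor that steers microglial processes, read 6.48, 6.81 and 6.70 in control embryos and 6.83, 6.81 and 6.78 in mutant embryos. Control replicate 1 alone was low. Its difference was 0.14, and 0.05 without that control. P2ry13 differed by 0.17, and by 0.05 without mutant replicate 1, which at 7.64 was the highest array. Gpr34, a lysophosphatidylserine receptor, read 4.39 to 4.40 in control embryos and 4.43 to 4.50 in mutant embryos.

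Of the transcription factors, Spi1, the gene of PU.1, read 6.30, 6.58 and 6.80 in control embryos and 6.81, 6.83 and 6.91 in mutant embryos. The mutants were close together and the controls were not. Its difference of 0.29 ± 0.11 (SE, limma adjusted p = 0.703) was 0.31 without mutant replicate 1 and 0.16 without control replicate 1. Runx1, a factor of blood cell formation, differed by 0.15 with no overlap, and Irf8, the partner of PU.1, by 0.08 with overlap. Sall1, a factor of microglial identity that neural progenitors also express, read 10.03, 9.75 and 9.90 in control embryos and 9.90, 9.70 and 9.68 in mutant embryos. Its difference of -0.14 was the most negative of the 38, and its groups overlapped.

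Surface and lysosomal genes gave mixed values. Laptm5, a lysosomal membrane protein of blood cells, read 8.49, 8.73 and 8.73 in control embryos and 9.13, 8.73 and 8.82 in mutant embryos. Its difference was 0.24, and 0.12 without mutant replicate 1. Cd53, a leukocyte tetraspanin, read 6.44, 6.80 and 6.91 in control embryos and 7.29, 6.82 and 6.97 in mutant embryos, so mutant replicate 1 was high and control replicate 1 low. Its difference was 0.31, and 0.18 without mutant replicate 1. Tmem119, a microglial membrane protein, differed by 0.15 with no overlap, and by 0.08 without mutant replicate 1. Differences were 0.15 for Cd68, a lysosomal glycoprotein of macrophages, 0.10 for Ctss, the protease cathepsin S, and 0.10 for Cd52, a small surface glycoprotein. Ctss was at 0.06 without mutant replicate 1, and Cd52 at -0.02 without control replicate 1. Ptprc, which encodes the pan-leukocyte phosphatase CD45, read 5.75 to 5.81 in control embryos and 6.04, 5.71 and 5.87 in mutant embryos, so mutant replicate 1 was highest and mutant replicate 2 lay below all controls. Its difference was 0.09, and 0.0084 without mutant replicate 1. Itgam and Itgb2, which form the integrin CD11b/CD18, differed by 0.07 and 0.01, and Itgam by 0.02 without control replicate 1. Aif1, which encodes the marker Iba1, read 5.72 to 5.76 in control embryos and 5.67 to 5.90 in mutant embryos. Lyz2, a lysozyme with the close copy Lyz1 that may share its signal, differed by 0.14, and by -0.05 without mutant replicate 1.

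The pattern receptors of innate immunity had differences near 0. Cd14, which presents bacterial lipopolysaccharide, differed by 0.01 with a 95% confidence interval of -0.17 to 0.19. Tlr2, a receptor for lipoproteins, differed by -0.06 (-0.22 to 0.11) and Tlr7, a receptor for single-stranded RNA, by 0.02 (-0.12 to 0.17). All 3 overlapped between the groups.

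**Figure D2:**
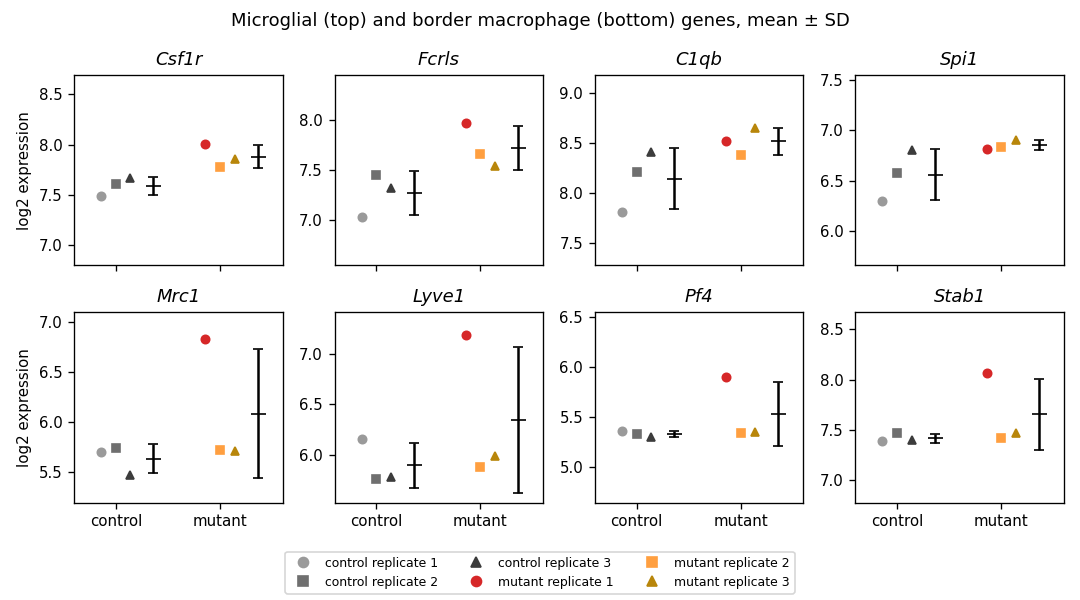
Log2 expression (y axis) of 4 microglial genes (top) and 4 border macrophage genes (bottom) in 3 control and 3 mutant embryos, with every panel spanning the same height. Bars to the right of each group are the mean and SD. Csf1r differs by 0.29 with no overlap, whereas Mrc1, Lyve1, Pf4 and Stab1 are high in mutant replicate 1 alone.

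Border macrophage genes behaved differently from embryo to embryo. Mrc1 (Entrez 17533), which encodes the mannose receptor CD206, read 5.70, 5.74 and 5.47 in control embryos and 6.83, 5.72 and 5.71 in mutant embryos. Mutant replicate 1 was 1.19 above the control mean, and the other mutants lay within the control range. Lyve1, a hyaluronan receptor also known from lymphatic vessels, read 6.15, 5.76 and 5.77 in control embryos and 7.19, 5.87 and 5.98 in mutant embryos. Stab1, a scavenger receptor, read 7.38, 7.46 and 7.39 in control embryos and 8.06, 7.42 and 7.47 in mutant embryos. Pf4, a chemokine of platelets that border macrophages also make, read 5.36, 5.33 and 5.30 in control embryos and 5.90, 5.34 and 5.35 in mutant embryos. In all 4 genes mutant replicate 1 was the highest array by more than 0.5. Cd163, the receptor for haemoglobin and haptoglobin, read 5.31 to 5.35 in control embryos and 5.27 to 5.30 in mutant embryos, and Ms4a7 read 4.75 to 4.80 and 4.74 to 4.83. These genes showed no such high array. Cd163 was the 1 gene of the 38 whose groups did not overlap with the mutants lower, by -0.04, where 2.85% of all genes did so.

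Promoters of Mrc1 (plus strand, chr2:14229164-14229463) and Pf4 (plus strand, chr5:90772185-90772484) are shown as genes that were high in the same embryo, from the same RefSeq table and with the same motifs in capitals.
Mrc1: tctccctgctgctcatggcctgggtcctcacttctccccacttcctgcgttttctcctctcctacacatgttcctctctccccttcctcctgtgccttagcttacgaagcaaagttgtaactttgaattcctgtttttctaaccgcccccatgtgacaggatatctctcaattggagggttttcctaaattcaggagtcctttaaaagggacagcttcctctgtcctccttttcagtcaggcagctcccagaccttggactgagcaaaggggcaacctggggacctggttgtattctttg
Pf4: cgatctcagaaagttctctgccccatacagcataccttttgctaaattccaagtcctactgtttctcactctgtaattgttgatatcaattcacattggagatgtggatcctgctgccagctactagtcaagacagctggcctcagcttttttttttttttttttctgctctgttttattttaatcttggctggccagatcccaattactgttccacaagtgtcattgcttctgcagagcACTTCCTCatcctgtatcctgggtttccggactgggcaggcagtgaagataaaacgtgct
Pf4 held 1 GAGGAAGT match, and Mrc1 held neither motif.

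The median difference of the 6 border genes was 0.22, against 0.14 for the 32 microglial genes. Without mutant replicate 1 the order turned, with 0.02 for the border genes and 0.10 for the microglial genes. The border median minus the microglial median was 0.08 with all arrays and -0.08 without mutant replicate 1. Taken by embryo, the median deviation of the microglial genes from their control means was 0.18, 0.08 and 0.13 in mutant replicates 1, 2 and 3, above the range of -0.03 to 0.03 in the controls. For the border genes it was 0.61, -0.01 and 0.04, against -0.02 to 0.02 in the controls. Each control is part of the control mean, which draws its own deviation toward that mean. The mean log2 level of the microglial genes was 6.85, 6.95 and 6.94 in control replicates 1, 2 and 3. In mutant replicates 1, 2 and 3 it was 7.13, 6.99 and 7.06, so mutant replicate 2 was close to the highest control. For the border genes the mean level was 5.68 to 5.78 in controls and 6.35, 5.73 and 5.77 in mutants. So the median of these 32 microglial genes was above all controls in each mutant embryo, and the border median was far from the controls in 1. The separate list of further microglia genes, given below, did not show this in mutant replicate 2. Of the 6 border genes, 4 had a mean level at or below the lower quartile over all genes, against 5 of 32 microglial genes. Differences are compressed at such levels, so shifts of the microglial size could be missed in the border list. Lyve1 and Stab1, with mean levels of 6.12 and 7.53, lay above that quartile. Each differed by 0.03 without mutant replicate 1. The part of expression level in the border values was not tested. No test of the list medians was run, since the genes were chosen with results of these data known.

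**Figure D3:**
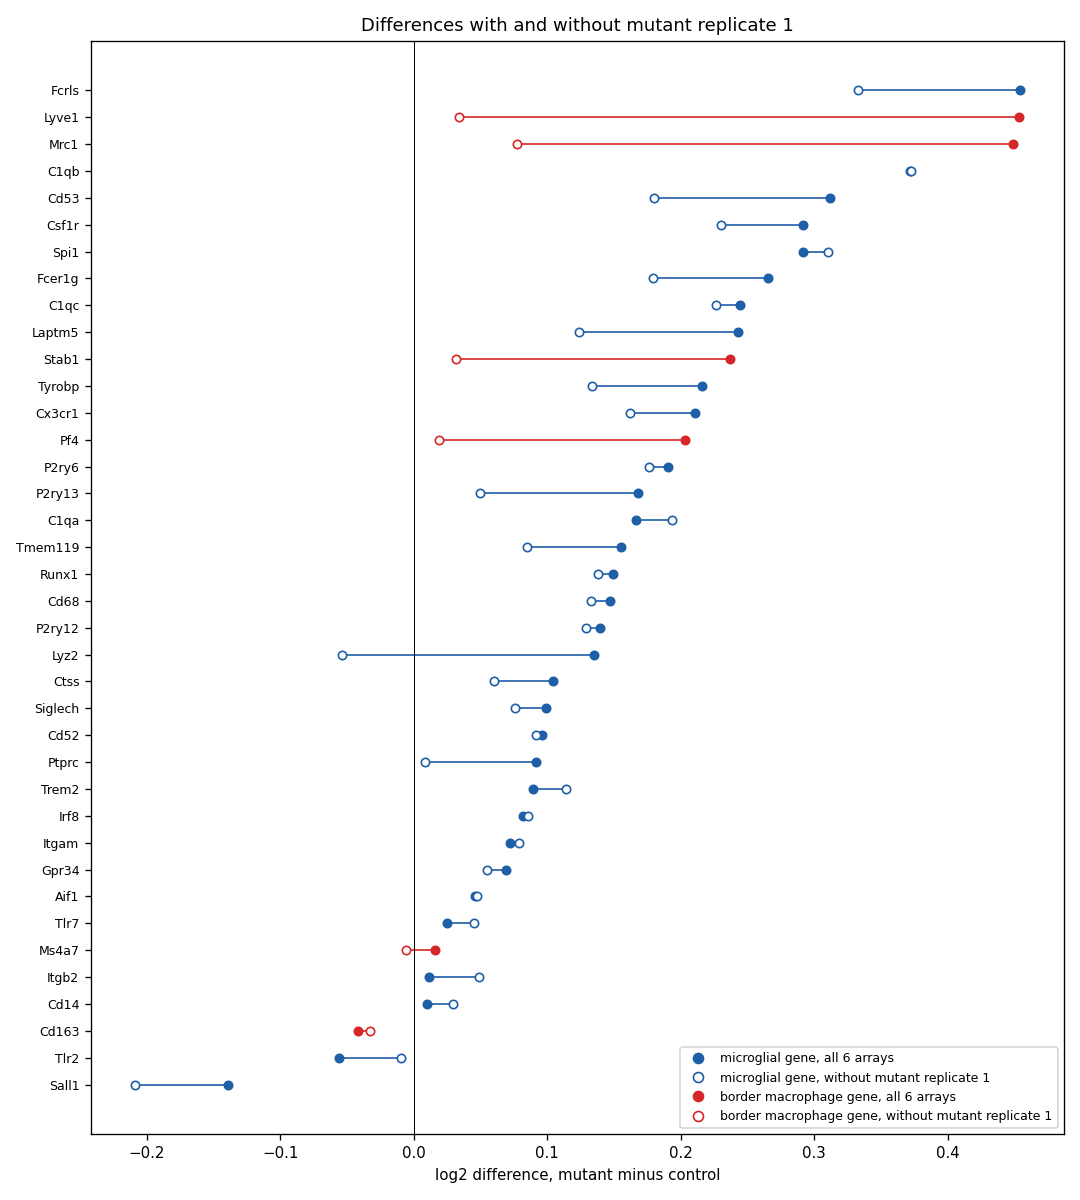
Log2 difference of mutant minus control (x axis) for each of the 38 genes, with all 6 arrays (filled points) and without mutant replicate 1 (open points). Red marks the 6 border macrophage genes and blue the 32 microglial genes. Lyve1, Mrc1, Stab1 and Pf4 move to between 0.02 and 0.08, while Csf1r keeps 0.23 and C1qb 0.37.

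Each mutant embryo was also set against the 3 controls gene by gene. Mutant replicate 1 lay above all controls for 24 of 32 microglial genes, mutant replicate 2 for 16 and mutant replicate 3 for 24. The shares were 75%, 50% and 75%, against 34.8%, 19.3% and 29.4% of all genes. For the border genes the counts were 5, 0 and 1 of 6. Without mutant replicate 1, 29 of 32 microglial genes still had positive differences, but 2 in place of 7 had an unadjusted limma p under 0.05, where 2.91% of all genes were higher at that level. Mutant replicate 1 was the highest of the 6 arrays for 21 of 38 genes, or 55.3%, against 27.6% of all genes. Control replicate 1 was the lowest for 15 of 32 microglial genes, or 46.9%, against 21.5% of all genes. Without control replicate 1 the microglial median was 0.13 and 4 of 38 genes had an unadjusted p under 0.05, where 4.35% of all genes were higher at that level.

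Most markers of cells around vessels and in the meninges were also high in mutant replicate 1. Of 16 pericyte and meninges genes, 13, or 81.2%, were highest in mutant replicate 1, against 27.6% of all genes. Their mean log2 level was 6.78 to 6.85 in control embryos and 7.75, 7.02 and 7.001 in mutant replicates 1, 2 and 3. Dcn, the proteoglycan decorin of connective tissue, had the largest difference of the list and read 6.58 to 6.62 in control embryos and 10.49, 8.32 and 7.27 in mutant embryos. All 3 mutants lay above the controls, and its difference of 2.09 was 1.19 without mutant replicate 1. Lum, a proteoglycan of fibroblasts, read 4.50, 4.63 and 4.50 in control embryos and 6.90, 4.68 and 4.78 in mutant embryos. In 6 of 16 genes, or 37.5%, every mutant lay above every control, against 7.69% of all genes. Pericyte genes were mixed. In mutant replicate 1, Rgs5 (8.62) and Kcnj8 (8.32) lay within the control range, while Pdgfrb (8.90) and Abcc9 (8.31) were highest of the 6 arrays. The median deviation of the list from its control means was 0.62, 0.07 and 0.16 in mutant replicates 1, 2 and 3, against -0.03 to 0.04 in the controls, so it too was above all controls in each mutant embryo. Its median difference was 0.34, and 0.09 when mutant replicate 1 was left out. No gene of it passed (lowest limma adjusted p 0.471), and their part in the border macrophage and microglial values was not tested. Endothelial genes had a mean level of 8.49 to 8.66 in control embryos and 8.85, 8.53 and 8.61 in mutant embryos. Of 14, 11 were highest in mutant replicate 1, or 78.6%, against 27.6% of all genes. Mfsd2a went the other way, lower in every mutant than in every control, with a difference of -0.33 (limma adjusted p = 0.126).

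Erythroid genes differed in all mutants, with 6 of 10 measured genes higher and none lower past the threshold, where 0.286% of all genes passed. Their mean log2 level was 7.66 to 7.77 in control embryos and 8.73 to 8.85 in mutant embryos. Hbb-bh1 had the largest difference of the list, 5.02, which lifts the mutant mean, and 1 of the 10 genes had a negative difference. The median difference of the list was 0.64, and 0.65 when mutant replicate 1 was left out. The part of erythroid genes in the microglial values was not tested.

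**Figure D4:**
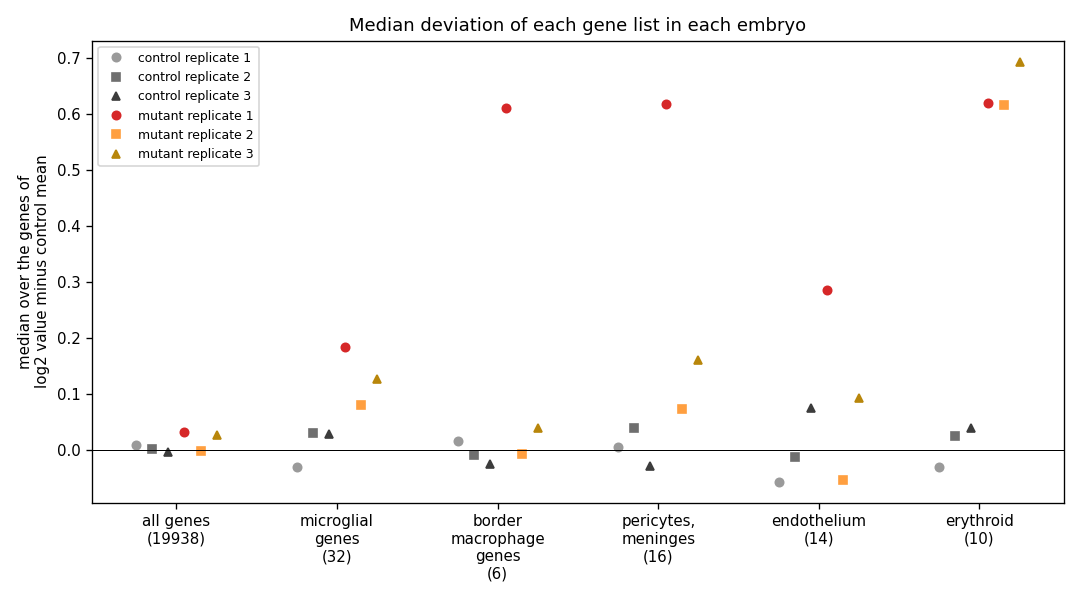
Median over each gene list (number of genes in brackets) of the log2 value minus the control mean (y axis) in each embryo. Border macrophage and pericyte and meninges genes stand highest in mutant replicate 1 (0.61 and 0.62), and erythroid genes are high in all 3 mutants. The 32 listed microglial genes lie slightly above the controls in all 3 mutants.

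Medians for other blood cells and for the choroid plexus lay near 0. Of 12 monocyte and granulocyte genes none passed, the median was 0.04, and the mean level was 5.31 to 5.40 in control embryos and 5.36 to 5.41 in mutant embryos. Of 9 lymphocyte genes none passed and the median was -0.04, with a mean level of 5.58 to 5.84 in control embryos and 5.69 to 5.75 in mutant embryos. Of 6 choroid plexus genes none passed, the median was 0.04, and the mean level was 5.60 to 5.86 in control embryos and 5.75 to 5.81 in mutant embryos. The ranges of the mutants for lymphocytes and choroid plexus lay inside those of the controls. Most genes of these lists were dim. At or below the lower quartile over all genes were 9 of 12 monocyte and granulocyte, 6 of 9 lymphocyte and 4 of 6 choroid plexus genes. Small differences could be missed at such levels.

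Genes that work with the 38 were examined as further lists. Of 12 ligands and niche factors none passed, and the median was 0.07, or 0.02 without control replicate 1. Csf1, a ligand of Csf1r, read 7.90, 7.93 and 7.90 in control embryos and 8.11, 8.07 and 8.03 in mutant embryos, a difference of 0.16 ± 0.06 (SE, limma adjusted p = 0.623). Il34, the other ligand, differed by 0.10 with overlap, and by 0.06 without mutant replicate 1. Cx3cl1, the neuronal ligand of Cx3cr1, differed by -0.20 with overlap (limma adjusted p = 0.665), opposite in sign to its receptor gene. The largest differences were 0.49 for Cxcl12, a chemokine of the meninges and vessels that attracts blood cells and neurons, and -0.36 for Tgfb2, a ligand of the TGF-beta family, neither overlapping between the groups. Of 13 signalling partners none passed, all 13 had positive differences and the median was 0.12. They were led by Inpp5d, a lipid phosphatase of blood cells, at 0.28 and Nckap1l, an actin regulator of blood cells, at 0.21. Without mutant replicate 1 these were 0.16 and 0.12, and the groups overlapped for Nckap1l.

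Among 24 further microglia genes none passed, 19 had positive differences and the median was 0.06. Without mutant replicate 1, 14 were positive and the median was 0.02. By embryo, their median deviation from the control means was 0.159, 0.020 and 0.049 in mutant replicates 1, 2 and 3. The controls ran from -0.036 to 0.045, so mutant replicate 2 lay inside their range. The mean log2 level of the list was 7.09 to 7.21 in control embryos and 7.31, 7.16 and 7.20 in mutant replicates 1, 2 and 3. Ly86, a partner of a Toll-like receptor homologue, read 7.71, 8.49 and 8.75 in control embryos and 8.82, 8.76 and 9.02 in mutant embryos. Control replicate 1 was far below the other controls, and the difference of 0.54 became 0.24 without it. Adgre1, which encodes the macrophage marker F4/80, read 5.90, 6.12 and 6.12 in control embryos and 6.62, 6.20 and 6.31 in mutant embryos. Its difference was 0.33, and 0.21 without mutant replicate 1. Among 12 further border macrophage genes none passed and the median was 0.11, or 0.06 without mutant replicate 1. Colec12, a scavenger receptor, read 6.34, 6.37 and 6.15 in control embryos and 7.71, 6.29 and 6.44 in mutant embryos. Dab2, an endocytic adaptor, read 7.93 to 8.01 in control embryos and 9.30, 7.79 and 7.75 in mutant embryos. F13a1, a clotting factor subunit of macrophages, was also highest in mutant replicate 1, at 6.79. These were the only 3 of the 12 to lie more than 0.5 above the control mean in that embryo. Mutant replicate 1 was the highest array for 6 of 12, or 50%, against 27.6% of all genes.

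Genes of activated microglia and of inflammation were examined last. Of 12 activation genes none passed, 8 had positive differences and the median was 0.06. Apoe, an apolipoprotein also made by glia, read 9.69, 9.70 and 9.48 in control embryos and 10.44, 9.97 and 9.97 in mutant embryos. Cd63, a tetraspanin of endosomes in many cells, differed by 0.34 ± 0.08 (SE, limma adjusted p = 0.209). Lpl, a lipase that neurons also express, differed by -0.79 ± 0.21 (SE, limma adjusted p = 0.298). It was lower in every mutant than in every control. Its difference was -0.90 without mutant replicate 1. Without control replicate 1 it was -1.06 and passed the threshold (limma adjusted p = 0.0162). Of 10 inflammatory genes none passed (none also at an unadjusted limma p under 0.05), and all overlapped between the groups. The differences ran from -0.09 for Il6 to 0.06 for Ccl2. However, 8 of 10 had a mean level at or below the lower quartile over all genes, where a small difference could be missed.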

How the data were processed

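Per the submitters' processing notes, Affymetrix Expression Console and RMA were used by the authors (robust multi-array averaging: background correction, quantile normalization and probe set summary). The deposited values are taken as log2, since RMA gives log2 values and they lay between 3.41 and 13.75. No source used here gives versions or the array's genome build. The number of arrays limits the precision.

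GEO's platform annotation gave the probe sets their genes. Of 35556, 21789 had 1 symbol, 1621 several and 12146 none listed. Symbols of 21698 were matched through Entrez numbers to RefSeq (GRCm38.p6), and none changed. Where a gene had several probe sets, the one of highest mean over the 6 arrays stood for it, and probe sets with several symbols were left out. Mutants and controls were compared in limma 3.58.1 (R 4.3.3; lmFit, eBayes, no covariate) over 19938 genes, with Benjamini-Hochberg adjustment and a threshold of 0.05. The fit was tested on simulated data. List medians are descriptions without a test.

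The members and lists were chosen with earlier results of these data known. All 38 members could be named, and of each other list those past the threshold and up to 3 with the largest absolute difference. Csf1, Il34, Cx3cl1, Rgs5, Kcnj8, Pdgfrb, Abcc9 and the cortical markers were named outside this rule, after their values were seen. Alternatives were a replicate block, median centring, a filter on dim genes, other uses of a gene's probe sets, sex as a covariate, an intensity trend, array weights and leaving out each array.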

Additional observations from a re-analysis of the deposited data

How the results depend on the processing

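In all 14 alternatives none of the 38 genes passed in limma; the lowest adjusted p ranged from 0.162 (Csf1r, array weights) to 0.843, and 31 genes kept their sign in every alternative that tested them. Genes of the 38 at an unadjusted limma p under 0.05 numbered 2 with sex as a covariate or without mutant replicate 1, and 11 without mutant replicate 2. Without mutant replicate 1, 2.91% of all genes were higher at that level. The shares of all genes under the other 2 fits are not given here. Over all genes, 57 calls became 34 with the replicate block, 24 with sex as a covariate and 217 with array weights, and 20 to 50 when 1 array was left out. Same-numbered arrays did not deviate together (correlations of 0.03, -0.14 and 0.08), so the numbers were not taken as pairs; the block changed no call among the 38. The microglial median of 0.14 became 0.0892 with array weights and 0.20 on the 4 genes that passed the filter on dim genes, and ranged from 0.10 to 0.19 when 1 array was left out. No border gene passed that filter, so it gave no border value. The border median ranged from 0.02 to 0.33 when 1 array was left out, and the border minus microglial median from -0.08 to 0.17. Signs turned for Itgb2 (-0.0101 with array weights), Lyz2 (-0.0835 with array weights) and Cd14 (-0.0192 with sex as a covariate, -0.0662 with array weights). When 1 array was left out, Itgb2 ran from -0.0313 to 0.0491, Cd52 from -0.0244 to 0.21, Aif1 from -0.0111 to 0.10, Lyz2 from -0.0542 to 0.30, Cd14 from -0.0638 to 0.0753, Tlr7 from -0.0043 to 0.0635 and Ms4a7 from -0.0062 to 0.0401. The cause of these changes was not tested.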
